A study of Homo sapiens with 6 samples.

Results

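Genes of tumor necrosis factor (TNF) signaling were examined in RNA-seq libraries labelled as H1650, an established human lung adenocarcinoma cell line. The genes were chosen by name and biotype, as the protein-coding genes called TNF or numbered TNFSF, TNFRSF, TRAF, RIPK, BIRC or TNFAIP genes. The rule itself used no expression value, but these families were chosen with earlier results of these data known. This gave 43 of the 15897 genes listed, which were sorted into 7 ligands, 13 receptors, 12 adaptors and RIP kinases, 6 inhibitors (5 BIR proteins and TNFAIP3) and 5 other TNFAIP genes. Total RNA was sequenced in 3 control libraries, given as wild type, and 3 shSETD2 libraries, from cells that carry an shRNA against the histone H3K36 methyltransferase SETD2. According to the methods, stable lines were made with lentivirus and 3 shRNA constructs were cloned. The labels do not say which construct a library carries, nor whether the libraries of a group came from separate cultures, so that the p-values measure the spread between these libraries only. Control cells have no vector named in the labels.

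TNF ligands are mostly trimeric proteins of the cell surface that can be shed, and they bind receptors that either carry a cytoplasmic death domain or recruit TRAF proteins directly. At TNF receptor 1, the adaptor TRADD gathers TRAF2, the kinase RIPK1 and the ubiquitin ligases BIRC2 and BIRC3, from which NF-κB and JNK signals start. The same receptor can pass to caspase-8 or to the necroptosis pathway, and TNFAIP3 (A20), itself induced by NF-κB, edits ubiquitin chains and limits the signal. In lung epithelium and its tumors, TNF is known as an inflammatory cytokine, made for the most part by macrophages in tissue.

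The libraries of the groups stood far apart, with Pearson's r of log2(FPKM + 1) across genes from 0.982 to 0.990 within a group and from 0.701 to 0.707 between groups. The FPKM of SETD2 (18.0, 10.2 and 17.6 in control libraries 1 to 3, and 8.97, 8.09 and 12.2 in shSETD2 libraries 1 to 3) overlapped between the groups. On log2(FPKM + 1) the difference was -0.58 (limma adjusted p = 0.0641), and the call changed without control library 2 (-0.83, adjusted p = 0.00666), without shSETD2 library 3 (-0.73, adjusted p = 0.0420) and with the replicate number as a block (-0.58, adjusted p = 0.0157). Of 12 lung epithelium markers only 3 could be analysed, and NKX2-1, at a mean FPKM of 1.65 in the control libraries, was listed at 0 in every shSETD2 library, while AGER had means of 1.25 and 0.670 FPKM and LAMP3 of 0.584 and 1.23 in control and shSETD2. The 8 epithelium markers analysed summed to between 14.2 and 16.2 FPKM in control and between 402.1 and 454.5 in shSETD2 libraries, of which KRT18, KRT8 and KRT7 made up most, while CDH1 was at 1.27 and 0.0120. The 12 markers written for embryonic kidney lines summed to between 119.8 and 124.9 FPKM in control and between 17.6 and 19.6 in shSETD2 libraries. Most of the control sum came from NEFM (37.8), LIN28B (21.5), NEFL (21.4) and HOXA9 (14.6 FPKM), whereas PAX2 (0.739 and 9.93) and LHX1 (0.802 and 4.65) had the higher mean in shSETD2. Of 14 leukocyte markers 3 were analysed, with sums between 3.16 and 4.81 FPKM in control and between 1.91 and 2.24 in shSETD2 libraries. CD68 had means of 1.11 and 1.47 and CD14 of 0.320 and 0.588, while NCAM1, which is also in the kidney list, was at 2.48 and 0. The 4 of 9 fibroblast markers analysed summed to between 4.04 and 4.54 FPKM in control and between 0.292 and 0.340 in shSETD2 libraries, and each had the lower mean in shSETD2. Of 7 endothelium markers only ESAM was analysed, at 0.414 and 45.5 FPKM. These markers changed along with the groups, so their part in the differences of the TNF genes cannot be told apart from that of the shRNA, and in bulk RNA fewer cells of a kind and less RNA per cell cannot be told apart either. Whether both groups are the same cell line was not tested, and a difference between lines cannot be told apart from one between the shRNA and its control in any value given here. The libraries are therefore named by their labels.

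Promoter sequence is shown for 3 genes that rose strongly, since NF-κB is the best known regulator of TNF signaling genes and binds κB sites. RefSeq promoter windows (GRCh38.p14) were matched by symbol for 31 of the 43 genes, and the 250 bases before each start were searched on both strands for the κB consensus of 10 bases. BIRC5, RIPK2, RIPK4, TNFRSF10A, TNFRSF10B, TNFRSF10C, TNFRSF10D, TNFRSF11B, TNFRSF12A, TNFRSF13C, TNFSF12 and TNFSF12-TNFSF13 had no window. The sequences below run 5′ to 3′ on the strand of the gene, and capitals mark matches, which in both BIRC3 and TNFAIP3 lie on the opposite strand. The window of BIRC3 is chr11:102317234-102317483, that of TNFAIP3 chr6:137867009-137867258 and that of TNF chr6:31575315-31575564, each on the plus strand. TNF has no match to this consensus in its window. TNFSF18 and TNFAIP2 are not shown and had no match either. Their log2 fold changes (5.02 and 4.70) were larger than those of BIRC3 (4.66) and TNFAIP3 (3.58). Sequences that depart from the consensus or lie farther from the start were not searched.
BIRC3: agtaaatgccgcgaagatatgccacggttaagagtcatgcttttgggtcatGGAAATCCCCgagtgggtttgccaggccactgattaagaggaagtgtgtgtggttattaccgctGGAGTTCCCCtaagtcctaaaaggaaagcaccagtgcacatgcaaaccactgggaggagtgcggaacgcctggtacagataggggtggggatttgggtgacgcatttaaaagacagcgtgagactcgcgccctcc
TNFAIP3: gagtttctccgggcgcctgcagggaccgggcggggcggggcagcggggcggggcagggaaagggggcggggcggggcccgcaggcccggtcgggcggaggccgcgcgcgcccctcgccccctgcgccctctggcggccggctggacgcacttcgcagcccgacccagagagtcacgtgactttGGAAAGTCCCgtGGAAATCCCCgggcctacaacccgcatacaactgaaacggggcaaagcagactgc
TNF: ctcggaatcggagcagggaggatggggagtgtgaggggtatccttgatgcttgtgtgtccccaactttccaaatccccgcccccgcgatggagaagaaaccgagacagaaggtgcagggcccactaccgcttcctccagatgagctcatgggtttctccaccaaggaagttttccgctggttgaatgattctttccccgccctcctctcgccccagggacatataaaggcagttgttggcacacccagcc

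In BIRC3 the matches end 189 and 125 bases before the start, and in TNFAIP3 they end 57 and 45 bases before it. Single matches on the plus strand stood before TNFAIP1, TNFRSF14, TRAF3 and BIRC6, and the match before TNFSF13 fitted the consensus on either strand. In all, 7 of the 31 genes (22.6%) had a match, against 6.28% of the 27305 genes in the table. These sets were not matched for gene type or for windows per gene, and the difference was not tested. Among genes higher in the shSETD2 libraries, 4 of 18 had a match, and among those lower 1 of 7, so matches were found on either side. Genes with several starts had more than 1 window, and a match of these letters describes the sequence and not a bound site.
TNFAIP1: GGGGGATTCC
TNFRSF14: GGGGCTCCCC
TRAF3: GGGGATTTCC
BIRC6: GGGGGTCCCC
TNFSF13: GGGAAATCCC

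Most TNF signaling genes were higher in the shSETD2 libraries, whereas most genes in general were lower. The groups were compared on log2(FPKM + 1) with limma over the 14068 genes that had a mean FPKM of at least 0.5, and a gene was called at an adjusted p under 0.05. FPKM corrects fragment numbers for the length of a gene and the size of a library, and fold changes on this scale understate those of weakly expressed genes. Of the 43 genes 39 were tested, of which 25 were higher, 10 were lower and 4 were not called. Of all genes tested, 26.8% were higher and 51.8% lower, and 78.6% were called in either direction. With an absolute log2 fold change of at least 1, 19 of the 39 were higher and 1 was lower, against 11.2% and 18.7% of all genes. All shSETD2 libraries lay above all control libraries for 25 genes and below them for 11, against 27.9% and 53% of all genes. The median log2 fold change was 1.03 for the 39 genes and -0.29 for all genes tested. Of the 39, 10 had a control mean under 0.5 and passed the filter through the shSETD2 libraries alone, so that they had to differ, and their calls carry no weight as a count. The other 29 reached 0.5 in both groups, and 16 of them (55.2%) were higher, 10 (34.5%) lower and 3 not called. Of the 11603 genes in all that reached 0.5 in both groups, 27.1% were higher and 48.2% lower. When each library was scaled by its median ratio to the geometric mean, 26 of the 39 genes rose and 7 fell, the median of all genes moved to -0.01 and that of the 39 to 1.27, and 49.6% of all calls were higher, in place of 34.1%.

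**Figure D1:**
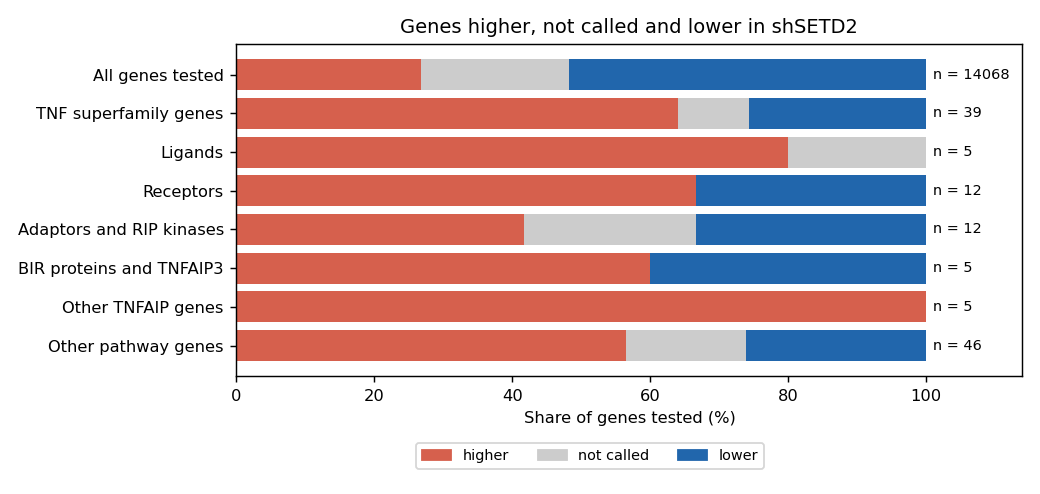
Share of genes tested (%) that were higher, not called or lower in the shSETD2 libraries, for all 14068 genes, for the 39 TNF superfamily genes tested, for each class and for the 46 other genes of the pathway, with the number tested beside each bar. The bars include genes that reached the filter in a single group, which for the TNF superfamily genes was always shSETD2. Of genes at 0.5 FPKM or more in both groups, 55.2% of the 29 TNF superfamily genes and 27.1% of all genes were higher.

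Among the ligands, TNF itself showed the largest difference. TNF, TNFSF18, TNFSF12 and TNFSF12-TNFSF13 reached the filter in the shSETD2 libraries only, so that their direction was fixed by it. TNFSF9 was the only ligand that reached 0.5 FPKM in both groups. TNF (ENSG00000232810.3_2) spans bases 31543344 to 31546113 of chromosome 6 (GRCh37). Control libraries 1 to 3 gave 0.0634, 0 and 0.122 FPKM for it, and shSETD2 libraries 1 to 3 gave 109.9, 103.5 and 112.2. The shSETD2 libraries lay close together and far above every control library. The difference on the log2(FPKM + 1) scale was 6.69 (standard error 0.061, limma adjusted p = 7.05e-09), and an exact two-sided permutation test gave p = 0.1, the smallest that 3 libraries against 3 allow. With a control library at 0 no fold change of the FPKM is given.

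TNFSF18 (ENSG00000120337.8_2), the ligand of the costimulatory receptor GITR, had 0 listed in each control library, against 31.7, 32.2 and 30.2 FPKM in shSETD2 libraries 1 to 3 (adjusted p = 8.62e-09). Its receptor, TNFRSF18, was not analysed here. TNFSF9, a costimulatory ligand of T cells, was at 4.51, 4.10 and 3.11 FPKM in the control and at 11.1, 9.68 and 11.5 in the shSETD2 libraries, without overlap. Its mean FPKM was 2.76 times as high in shSETD2 (log2 fold change 1.27, standard error 0.12, adjusted p = 9.85e-05). Of the 7 ligands named TNF or TNFSF, TNFSF9 had the highest level in the control libraries, whereas TNF and TNFSF18 were near or at 0 there.

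TNFSF12 (TWEAK), TNFSF13 (APRIL) and the read-through gene TNFSF12-TNFSF13 lie together on the plus strand of chromosome 17 between 7452208 and 7464925, and how reads of their shared exons were divided is unknown. TNFSF12 was at 0.575, 0.143 and 0.243 FPKM in control and at 5.02, 5.25 and 2.81 in shSETD2 libraries (log2 fold change 2.00, standard error 0.22, adjusted p = 1.86e-04). The read-through gene was listed at 0 in the control libraries and at 1.27, 0 and 2.75 FPKM in shSETD2 libraries 1 to 3. The groups overlapped for it (adjusted p = 0.0734), and without shSETD2 library 2 the adjusted p was 0.00164. TNFSF13 (0.179, 0.127 and 0 against 0.527, 0.994 and 0.321 FPKM) and TNFSF15 (0, 0 and 0.0131 against 0.70, 0.886 and 0.775 FPKM) were too weakly expressed to be tested. Both were above their control values in every shSETD2 library, but stayed under 1 FPKM. Summed over the 7 ligands, the control libraries held between 3.48 and 5.33 FPKM and the shSETD2 libraries between 152.6 and 160.6, mainly TNF and TNFSF18.

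**Figure D2:**
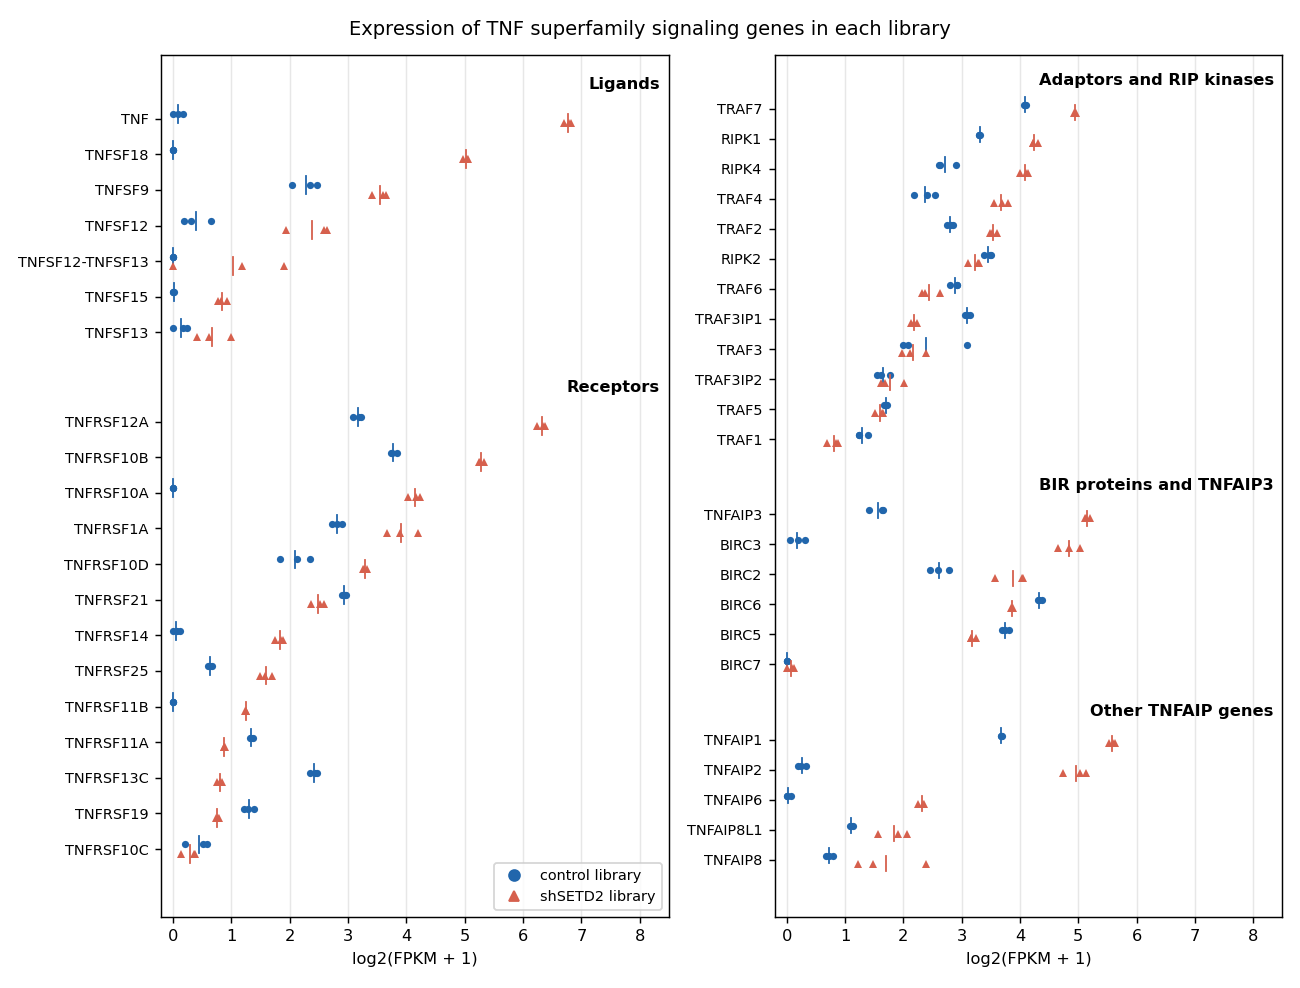
Level of each of the 43 genes as log2(FPKM + 1), with a circle for each control library, a triangle for each shSETD2 library and a vertical tick at the mean of 3 libraries. TNF, TNFSF18, TNFRSF10A, BIRC3 and TNFAIP2 sit at or near 0 in the control libraries and above 4 in the shSETD2 libraries.

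Receptors changed in both directions, with 8 of 12 tested higher and 4 lower, against 26.8% and 51.8% of all genes. TNFRSF10A, TNFRSF11B and TNFRSF14 reached the filter in the shSETD2 libraries only, and of the other 9 receptors 5 were higher and 4 lower. Of the death domain receptors, TNFRSF1A (ENSG00000067182.7_2), which encodes TNF receptor 1, was at 5.99, 5.60 and 6.47 FPKM in control and at 17.3, 11.7 and 13.8 in shSETD2 libraries. The shSETD2 libraries varied, but all lay above the controls, and the mean was 2.37 times as high (log2 fold change 1.10, standard error 0.13, adjusted p = 3.06e-04). TNFRSF1B, which encodes TNF receptor 2, was not analysed here. The receptor that carries the death signal of TNF was thus higher, as was TNF, whose direction was fixed by the filter.

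The receptors of the death ligand TRAIL lie within a cluster on chromosome 8, in the order TNFRSF10B, TNFRSF10C, TNFRSF10D and TNFRSF10A, between 22877646 and 23082639. TNFRSF10A had 0 listed in each control library, against 16.9, 17.8 and 15.4 FPKM in shSETD2 libraries 1 to 3 (adjusted p = 4.29e-08). TNFRSF10B was at 12.3, 13.4 and 12.4 FPKM in the control and at 39.2, 37.1 and 37.4 in the shSETD2 libraries, a rise of 2.98 times in mean FPKM (adjusted p = 5.50e-07). The decoy receptor TNFRSF10D, which lacks a working death domain, was at 2.55, 3.36 and 4.06 FPKM against 9.0, 8.58 and 8.71, or 2.64 times as high (adjusted p = 1.63e-04). The other decoy of the cluster, TNFRSF10C, had values of 0.156, 0.429 and 0.504 against 0.291, 0.288 and 0.0923 FPKM, which overlapped and were too low to be tested. TNFRSF10B and TNFRSF10D thus reached 0.5 FPKM in both groups and were higher, as were 27.1% of all such genes. The direction of TNFRSF10A was fixed by the filter, and TNFRSF10C was at under 1 FPKM in all libraries. The ligand TNFSF10 (TRAIL) was not analysed here.

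TNFRSF25, the receptor of TNFSF15, rose from 0.549 ± 0.0428 to 2.01 ± 0.228 FPKM (SD, n = 3), with an adjusted p of 2.95e-05. Its gene overlaps PLEKHG5 on the same strand, which had a mean of 3.97 FPKM over all libraries. TNFRSF21, a death receptor studied mainly in neurons, fell from 6.66 ± 0.167 to 4.62 ± 0.437 FPKM (SD, n = 3; adjusted p = 0.00101), but after median ratio scaling the difference was -0.15 (adjusted p = 0.107).

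Among receptors without a death domain, TNFRSF12A (ENSG00000006327.13_2), the receptor of TWEAK, had the highest level of any receptor in the shSETD2 libraries. It was at 8.33, 7.47 and 8.08 FPKM in control and at 80.4, 74.3 and 82.4 in shSETD2 libraries, which is 9.93 times as high (log2 fold change 3.16, standard error 0.059, adjusted p = 6.92e-08). Its ligand TNFSF12 was higher too, but the direction of TNFSF12 was fixed by the filter. TNFRSF14, the receptor of LIGHT, was at 0.0786, 0.0433 and 0 FPKM in control and at 2.68, 2.35 and 2.60 in shSETD2 libraries (adjusted p = 1.06e-06). TNFRSF11B, the soluble receptor osteoprotegerin, was sorted with the decoy receptors. It was listed at 0 in the control libraries and at 1.35, 1.37 and 1.38 FPKM in the shSETD2 libraries (adjusted p = 1.56e-06). Both were weakly expressed where they were found.

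Of the 13 TNFRSF genes, the lowest log2 fold change was that of TNFRSF13C, the BAFF receptor of B cells, which was at 4.07, 4.51 and 4.38 FPKM in control and at 0.782, 0.755 and 0.690 in shSETD2 libraries. Its mean was 5.82 times as high in the control group (log2 fold change -1.61, standard error 0.059, adjusted p = 1.06e-06), and no library overlapped. TNFRSF11A (RANK, the receptor that drives osteoclast formation) and TNFRSF19 (TROY) fell from 1.53 ± 0.0413 to 0.837 ± 0.00708 and from 1.46 ± 0.152 to 0.694 ± 0.0311 FPKM (SD, n = 3), with adjusted p-values of 1.81e-04 and 3.07e-04. After quantile normalization, TNFRSF11A had a log2 fold change of -0.01 and TNFRSF19 one of -0.07, with adjusted p-values of 0.848 and 0.401. Over all 13 receptors the FPKM summed to between 43.6 and 46.4 in control and between 161.8 and 176.4 in shSETD2 libraries.

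**Figure D3:**
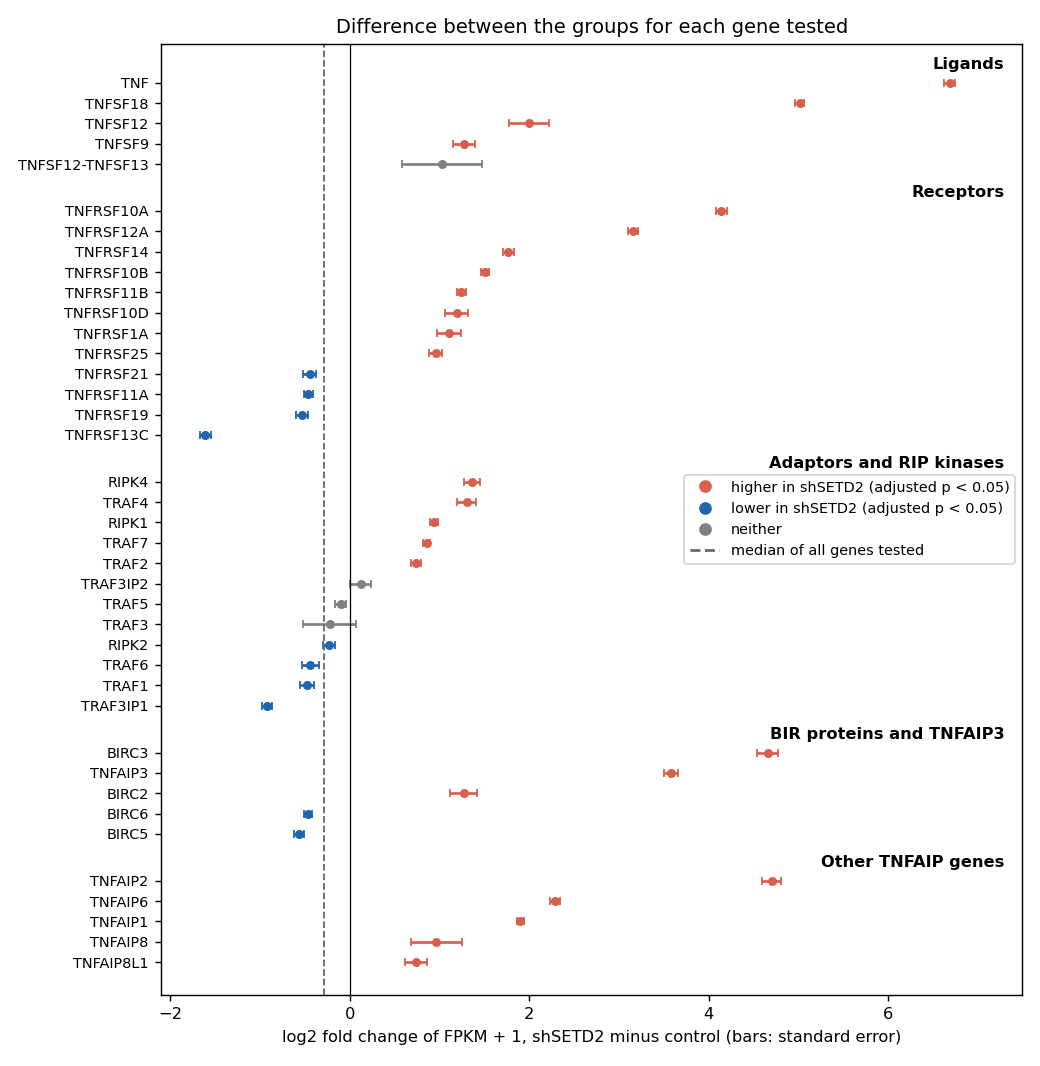
Log2 fold change of FPKM + 1 (shSETD2 minus control) of the 39 genes tested, by class, with bars for the standard error and colors for the call at an adjusted p under 0.05. The dashed line is the median of all genes tested (-0.29), and TNF lies farthest from it at 6.69.

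Of the 12 adaptors and RIP kinases, 5 were higher, 4 lower and 3 not called, and a similar share of all genes (78.6%) was called. TRAF2, the adaptor that brings BIRC2 and BIRC3 to the receptor, was at 5.69, 6.06 and 6.23 FPKM in control and at 10.2, 10.5 and 11.2 in shSETD2 libraries, or 1.77 times as high (adjusted p = 3.33e-05). TRAF7 had the highest level of the class in both groups. It was at 16.3, 16.0 and 15.8 against 29.9, 29.5 and 30.2 FPKM (adjusted p = 1.75e-06), and it overlaps CASKIN1 on the other strand, whose mean was 2.24 FPKM. TRAF4, an adaptor known from epithelial junctions, was at 4.79, 4.28 and 3.56 against 12.0, 12.8 and 10.7 FPKM (log2 fold change 1.31, standard error 0.11, adjusted p = 4.03e-05). For each of these genes all shSETD2 libraries lay above the controls.

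Other TRAF genes did not share this direction. TRAF1, which is itself an NF-κB target, fell from 1.45 ± 0.148 to 0.753 ± 0.117 FPKM (SD, n = 3; adjusted p = 0.00125), with a log2 fold change of -0.01 and an adjusted p of 0.876 after quantile normalization. TRAF6, the adaptor of interleukin-1 and Toll-like receptors, fell from 6.37 ± 0.344 to 4.46 ± 0.626 FPKM (SD, n = 3; adjusted p = 0.00429), with -0.14 and an adjusted p of 0.207 after median ratio scaling. TRAF5 was at 2.25 ± 0.0699 and 2.03 ± 0.156 FPKM (SD, n = 3; adjusted p = 0.175), and its log2 fold change of -0.10 turned to 0.25 with an adjusted p of 0.00715 after quantile normalization. TRAF3, a negative regulator of the non-canonical NF-κB pathway, was at 2.96, 7.48 and 3.25 FPKM in control and at 3.34, 4.20 and 2.95 in shSETD2 libraries. Control library 2 stood apart for TRAF3, and the log2 fold change was -0.23 (adjusted p = 0.512) with it and 0.12 (adjusted p = 0.429) without it. TRAF3IP1, which belongs to the transport complex of cilia and binds TRAF3, fell from 7.57 ± 0.297 to 3.53 ± 0.158 FPKM (SD, n = 3; adjusted p = 9.00e-06). TRAF3IP2 (2.14 ± 0.245 and 2.43 ± 0.509 FPKM, SD, n = 3), an adaptor of interleukin-17 receptors, was not called (adjusted p = 0.383), but was higher after quantile normalization (log2 fold change 0.46, adjusted p = 0.00926).

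RIPK1 was at 8.86, 8.86 and 8.98 FPKM in control and at 17.7, 18.7 and 17.6 in shSETD2 libraries, or 2.02 times as high (log2 fold change 0.94, standard error 0.043, adjusted p = 2.78e-06). RIPK4, a kinase of keratinocyte differentiation, was at 6.52, 5.18 and 5.09 against 16.2, 15.1 and 16.5 FPKM (log2 fold change 1.36, standard error 0.092, adjusted p = 1.72e-05). RIPK2, which acts downstream of NOD receptors, was lower, at 7.66, 8.66 and 8.78 against 10.2, 10.4 and 9.44 FPKM (adjusted p = 0.0168). The call for RIPK2 was lost without control library 1 (adjusted p = 0.0524) or without control library 2 (0.0567), and its log2 fold change of -0.23 turned to 0.087 after median ratio scaling. RIPK3, the kinase that starts necroptosis, was not analysed here.

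In the class named inhibitors, which holds the BIR proteins and TNFAIP3, the genes BIRC3 and TNFAIP3 rose most. The class name does not mean that each gene limits TNF signaling, since BIRC2 and BIRC3 take part in the receptor complex described above. BIRC3 (ENSG00000023445.13_2) and BIRC2 (ENSG00000110330.8_3) are paralogs that lie 7807 bases apart on the plus strand of chromosome 11, and both encode ubiquitin ligases bound by TRAF2. BIRC3 was at 0.139, 0.236 and 0.0412 FPKM in control and at 24.2, 31.7 and 27.7 in shSETD2 libraries (log2 fold change 4.66, standard error 0.11, adjusted p = 1.94e-07). Its mean rose from 0.139 to 27.9 FPKM. BIRC3 reached the filter in the shSETD2 libraries only, so that its direction was fixed by it. BIRC2 was at 5.06, 5.91 and 4.49 against 10.9, 15.4 and 15.5 FPKM, a rise of 2.70 times (log2 fold change 1.27, standard error 0.15, adjusted p = 2.93e-04). In the control libraries BIRC2 thus exceeded BIRC3 in FPKM, and in the shSETD2 libraries BIRC3 exceeded BIRC2.

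TNFAIP3 (ENSG00000118503.14_3, chromosome 6, 138188325 to 138204449) was at 2.14, 1.65 and 2.11 FPKM in control and at 33.8, 34.0 and 35.7 in shSETD2 libraries. Its mean was 17.5 times as high (log2 fold change 3.58, standard error 0.077, adjusted p = 1.19e-07). The other BIR proteins went the other way or were hardly expressed. BIRC5 (survivin), which acts in mitosis, fell from 12.4 ± 0.60 to 8.07 ± 0.322 FPKM (SD, n = 3; adjusted p = 9.33e-05), and BIRC6, the class member with the highest level in the control libraries, fell from 19.1 ± 0.457 to 13.6 ± 0.228 FPKM (SD, n = 3; adjusted p = 5.22e-05). BIRC7 (livin) had 0 listed in each control library, against 0.0837, 0 and 0.0638 FPKM in shSETD2 libraries, and was not tested.

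Of the other TNFAIP genes, TNFAIP8L1 is named for its likeness to TNFAIP8 and the rest for their induction by TNF. All 5 were higher, against 26.8% of all genes. TNFAIP2 and TNFAIP6 reached the filter in the shSETD2 libraries only, so that their direction was fixed by it. TNFAIP1, an adaptor of a cullin ubiquitin ligase, was at 11.8, 12.0 and 11.7 FPKM in control and at 47.1, 45.1 and 48.7 in shSETD2 libraries, or 3.97 times as high (adjusted p = 1.29e-07). TNFAIP2, an exocyst-related protein, was at 0.147, 0.262 and 0.190 against 33.8, 25.7 and 31.7 FPKM (log2 fold change 4.70, standard error 0.11, adjusted p = 1.49e-07). TNFAIP6, a secreted hyaluronan-binding protein, was at 0, 0.0508 and 0 against 4.13, 4.03 and 3.76 FPKM (adjusted p = 2.37e-07). These had no overlap between the groups.

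TNFAIP8 was the most variable of the 5, at 0.660, 0.723 and 0.598 FPKM in control and at 1.34, 4.23 and 1.79 in shSETD2 libraries, where library 2 stood apart. Its adjusted p of 0.0198 became 0.0533 without control library 1 and 0.0572 without control library 3. TNFAIP8L1 rose from 1.15 ± 0.0378 to 2.62 ± 0.601 FPKM (SD, n = 3; adjusted p = 0.00154), and it overlaps MYDGF on the other strand, which had a mean of 25.2 FPKM. Whether the authors' quantification used the strand of the reads is not given in the sources used here.

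To see whether genes outside these name families followed, 54 other genes of the pathway were listed by role, of which 46 were tested. At an adjusted p under 0.05, 26 were higher and 12 lower, with a median log2 fold change of 0.46. As above, 26.8% of all genes were higher and 51.8% lower. With median ratio scaling these became 31 and 9. Of the 46 genes, 42 reached 0.5 FPKM in both groups, and 24 of these were higher and 10 lower. Of the 20 genes of the receptor complex and its ubiquitin system, 15 were higher and 1 was lower. Among the 19 that reached 0.5 FPKM in both groups, 14 were higher and 1 was lower. Of the 14 downstream kinases, 4 (28.6%) were higher and 7 (50%) lower, shares near those of all genes. Differences between roles were not tested.

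Of the other receptors, CD40, which signals through TRAF proteins, was at 0.892, 1.24 and 1.46 FPKM in control and at 34.8, 38.6 and 37 in shSETD2 libraries (log2 fold change 4.11, standard error 0.10, adjusted p = 2.08e-07). FAS, the prototype death receptor, was at 0.871, 1.12 and 1.37 against 16.2, 18.7 and 17.1 FPKM (log2 fold change 3.11, standard error 0.10, adjusted p = 6.40e-07). LTBR, the lymphotoxin β receptor, was at 0.0171, 0 and 0.0165 against 2.34, 2.81 and 2.49 FPKM (adjusted p = 1.10e-06). Each had higher values in all shSETD2 libraries, but LTBR reached the filter in these libraries only, so that its direction was fixed by it. In the other direction, EDA2R fell from 3.07, 2.81 and 2.19 FPKM to 0, 0 and 0.0197 (adjusted p = 5.18e-06), and its ligand EDA, of ectodermal development, fell from 2.41 ± 0.641 to 0.710 ± 0.0111 FPKM (SD, n = 3; adjusted p = 7.51e-04). NGFR, a neurotrophin receptor, fell from 1.98 ± 0.325 to 0.236 ± 0.0927 FPKM (SD, n = 3; adjusted p = 3.54e-05). EDA2R and NGFR reached the filter in the control libraries only, so that their direction was fixed by it. The ligand CD70 rose from 4.25 ± 0.506 to 18.3 ± 3.24 FPKM (SD, n = 3; adjusted p = 2.77e-05).

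Within the receptor complex, TRADD was at 1.46, 1.43 and 1.46 FPKM in control and at 6.34, 6.28 and 6.41 in shSETD2 libraries (adjusted p = 4.42e-07), whereas FADD, which links death receptors to caspase-8, was at 11.7, 13.0 and 12.7 against 11.5, 11 and 11.2 FPKM (adjusted p = 0.0520). The log2 fold change of FADD was -0.13, and it was -0.18 with an adjusted p of 0.0198 without control library 1 and 0.19 with an adjusted p of 0.0140 after median ratio scaling. CASP8 rose from 1.41 ± 0.176 to 6.56 ± 0.702 FPKM (SD, n = 3; adjusted p = 7.19e-06), and CFLAR, the inhibitor of caspase-8 known as FLIP, from 0.905 ± 0.0567 to 9.98 ± 0.402 FPKM (SD, n = 3; adjusted p = 1.30e-07). An effector and its inhibitor thus rose together. MLKL, the membrane-permeabilizing protein of necroptosis, was at 0.110, 0 and 0.0181 FPKM in control and at 6.21, 5.0 and 6.21 in shSETD2 libraries (adjusted p = 8.43e-07). It reached the filter in the shSETD2 libraries only, so that its direction was fixed by the filter.

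TNIP1, a partner of TNFAIP3, reached the highest level of the genes listed by role, at 8.51, 8.65 and 9.98 FPKM in control and 98.5, 94.0 and 100.4 in shSETD2 libraries (log2 fold change 3.30, standard error 0.065, adjusted p = 8.78e-08). RBCK1, a subunit of the linear ubiquitin ligase LUBAC, rose from 6.79 ± 0.846 to 26.3 ± 1.23 FPKM (SD, n = 3; adjusted p = 3.50e-06), while its catalytic partner RNF31 was at 4.18 and 4.38 FPKM and was not called (adjusted p = 0.362). SHARPIN, a further LUBAC subunit, rose from 7.10 ± 0.312 to 11.2 ± 0.847 FPKM (SD, n = 3; adjusted p = 1.96e-04). ITCH, a ubiquitin ligase that acts with TNFAIP3, rose from 13.6 ± 2.15 to 54.8 ± 11.2 FPKM (SD, n = 3), and TBK1 from 6.59 ± 0.521 to 15.4 ± 1.5 FPKM (SD, n = 3), with adjusted p-values of 5.13e-05 and 3.09e-05.

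Of the downstream kinases, MAP3K14 (NIK), the kinase of the non-canonical NF-κB pathway, rose from 1.49 ± 0.223 to 6.10 ± 0.247 FPKM (SD, n = 3; adjusted p = 5.46e-06), and MAP3K5 (ASK1) from 3.93 ± 0.206 to 13.0 ± 0.306 FPKM (SD, n = 3; adjusted p = 8.02e-07). CHUK (IKKα), on which NIK acts, fell from 11.8 ± 0.309 to 4.78 ± 0.210 FPKM (SD, n = 3; adjusted p = 2.23e-06). ADAM17, the protease that sheds TNF from the cell surface, fell from 12.7 ± 0.697 to 7.39 ± 0.627 FPKM (SD, n = 3; adjusted p = 1.19e-04), while RHBDF2, which brings ADAM17 to the surface, rose from 1.81 ± 0.298 to 9.02 ± 1.59 FPKM (SD, n = 3; adjusted p = 2.73e-05).

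**Figure D4:**
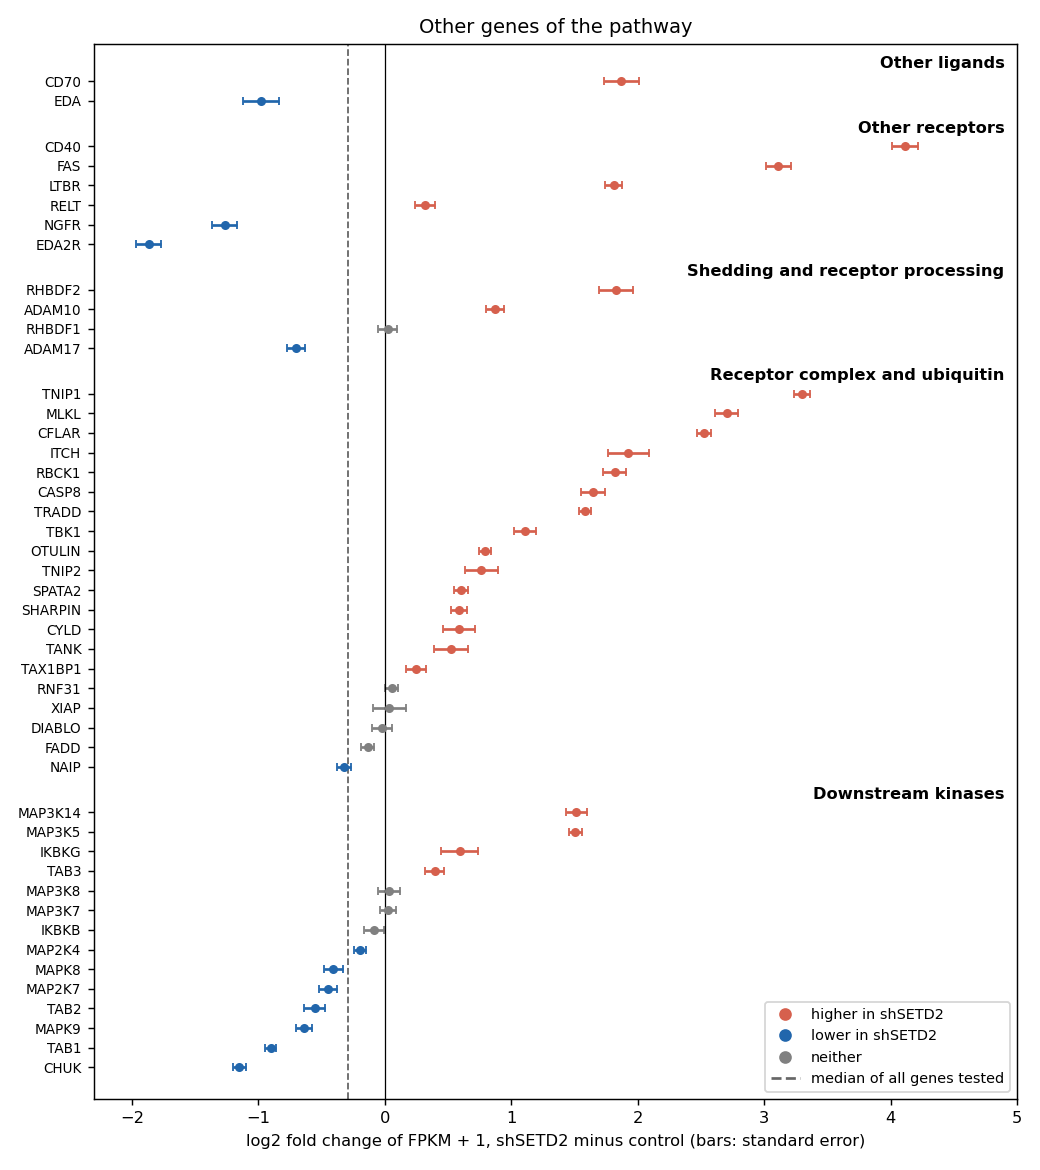
Log2 fold change of FPKM + 1 (shSETD2 minus control) of 46 genes of the TNF pathway outside the name families, by role, with bars for the standard error and colors for the call at an adjusted p under 0.05. CD40 (4.11), TNIP1 (3.30) and FAS (3.11) lie farthest to the right, and EDA2R (-1.87) and NGFR (-1.26) farthest to the left.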

How the data were processed

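RNA-seq libraries of 3 control and 3 shSETD2 samples were used. The authors mapped reads to hg19 with Hisat2, quantified genes with Ballgown and deposited FPKM per gene and library. Tool versions, annotation release and the filter on genes are not given in the sources used here. Their second table, which repeats the FPKM and holds fold changes, p-values and group means of their own comparison, was not used. Read counts behind FPKM are unknown, so precision rests on the spread of 3 libraries. A value of 0 can be a failed estimate, as 10 genes at 0 in a library reached an FPKM of 5 or more in another of the same group.

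The 14068 genes whose mean FPKM reached 0.5 were compared on log2(FPKM + 1) with lmFit and trended eBayes of limma 3.58.1 (R 4.3.3), adjusted by Benjamini-Hochberg over all genes tested. The fit was checked on simulated data in which few genes differed, so the check does not cover data in which most genes are called. Counts over genes that reached 0.5 in both groups were added after seeing the data. Alternatives were pseudocounts of 0.1 and 0.01, no filter or a minimum mean of 5, scaling by upper quartile or median ratio, quantile normalization, no trend, a replicate block, and each library left out. Values per library are given for genes called with an absolute log2 fold change of at least 1, for 9 genes central to the pathway where listed, and for the highest member of each class. Of the other pathway genes, those called with such a change are named, with TRADD, FADD, CASP8, MLKL and ADAM17. Further genes were named after their values were seen. The families, the lists and the tests were chosen with earlier results of these data known. Promoter windows came from a RefSeq table, whose strand was checked against transcripts. Python 3.11.15 and matplotlib 3.10.9 were used for tables and figures.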

Additional observations from a re-analysis of the deposited data

How the results depend on the processing

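Of the 39 genes tested, 28 kept their direction and their side of the threshold under all 15 alternatives in which they could be fitted. The exceptions were RIPK2, TNFAIP8, TNFRSF11A, TNFRSF19, TNFRSF21, TNFSF12-TNFSF13, TRAF1, TRAF3, TRAF3IP2, TRAF5 and TRAF6. With a mean FPKM of at least 5, 24 genes could be tested, of which 6 were lower. Of the other pathway genes, 26 could be tested and 23 were called, 17 higher and 6 lower, since fewer genes enter. In this setting 42.5% of the calls among all genes were higher. After quantile normalization 6 of the 39 genes were lower, and 43.7% of the calls among all genes were higher. The log2 fold change was reversed after median ratio scaling for FADD (0.19), RIPK2 (0.087), TRAF3 (0.054) and TRAF5 (0.14), and after quantile normalization for TRAF3 (0.021) and TRAF5 (0.25). The cause was not tested. Leaving out a library in turn gave from 33 to 36 calls among the 39 genes, and from -0.43 to 0.12 for TRAF3. TNF stayed between 6.64 and 11.21 over all settings, the highest with a pseudocount of 0.01. With the replicate number as a block, 35 of the 39 and 38 of the other pathway genes were called, as without it. Deviations of libraries with the same number correlated at -0.0237, 0.0177 and -0.00766. Whether libraries with the same number were prepared together is not given, and with 3 libraries per group these values cannot decide it. Fragment counts are unknown, so no limit can be given for values at or near 0.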
